A study of Mus musculus with 8 samples.

Results

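The genes described are the mouse replication-dependent histone genes that the deposited count table lists under an older symbol. A row was taken where its symbol began with Hist1h, Hist2h, Hist3h or Hist4h and its counts summed to at least 80 over the 8 libraries. Of 31815 gene rows, 8 carried such a symbol and 7 reached the minimum: the H2A genes Hist1h2ap and Hist1h2an, the H2B genes Hist1h2bq, Hist1h2br and Hist1h2bp, and the H4 genes Hist1h4m and Hist1h4n. No H1 or H3 gene met the rule. Just inside the minimum was Hist1h2bp with a summed count of 149, and just outside it Hist1h2ao, an H2A gene, with 49. The table names the other genes of the family by newer symbols (H2ac8, H1f5 and the like). Gene identifiers matched to GENCODE M21 gave 59 of these, 52 with a summed count of at least 80 (5 H1, 13 H2A, 14 H2B, 11 H3 and 9 H4 genes). These 52 are used below only to set the 7 beside the rest of the family.

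The libraries came from CD8 T cells of OT-I mice, strain C57BL/6-Tg(TcraTcrb)1100Mjb/J, in which most T cells bear 1 transgenic antigen receptor, specific for ovalbumin (OVA). Naive spleen cells were cultured with OVA peptide for 3 days and, at 24 h, transduced with a vector that encoded GFP and either TOXFL or TOXdeltaN, the labels' names for 2 proteins of the Tox gene, which encodes a DNA-binding nuclear factor. Sorting on day 5 took the brightest 20% of the GFP-positive cells, and the cells without GFP. This gave 4 groups of 2 libraries: TOXFL-positive, TOXFL-negative, TOXdeltaN-positive and TOXdeltaN-negative. Cells with a GFP-only vector were not analysed here. GFP-positive and GFP-negative cells therefore differ in carrying any vector as well as in the TOX construct, and these cannot be told apart. Whether 2 libraries of a group stem from different mice or cultures is not in the labels, so the p-values cover the differences among these 8 libraries, and those may be technical.

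Replication-dependent histone genes supply the core histones H2A, H2B, H3 and H4 and the linker histone H1 that package newly copied DNA. They are transcribed mainly in S phase, most of them from a large cluster on mouse chromosome 13, and most lack introns. Their mRNAs usually end not in a poly(A) tail but in a short stem-loop, which the stem-loop binding protein SLBP holds during processing, translation and decay. Activated CD8 T cells divide fast and so make much histone mRNA. The libraries were made with the SMART-Seq v4 kit, which starts cDNA synthesis from an oligo(dT) primer, so a count of these genes reflects both the amount of mRNA and how well that mRNA is primed. In bulk libraries, fewer cells in S phase and less histone mRNA per cell cannot be told apart.

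All 7 genes, together with Hist1h2ao, lay within 50705 bases at chr13:21786826-21837530 (GRCm38). The span held 11 annotated genes, the 8 histone genes and 3 annotated miRNA genes that overlap Hist1h2an, Hist1h2ao and Hist1h2ap on the opposite strand. The kit does not mark strand, so reads of overlapping genes cannot be told apart. In this stretch Hist1h2bq, Hist1h2ao and Hist1h4m are followed by their near copies in mirrored order, Hist1h4n, Hist1h2ap and Hist1h2br. The coding sequences of Hist1h2ap and Hist1h2ao, 390 bases each, were identical. Of the 50-base windows of the Hist1h2ap transcript, 93.1% were also in Hist1h2ao and 6.9% were in no other gene. The share found in no other gene was 2.7% for Hist1h2bq, 11.3% for Hist1h2br, 10.2% for Hist1h4m, 14.4% for Hist1h4n, 14.2% for Hist1h2an and 55.9% for Hist1h2bp. How the estimated counts were divided among these copies is therefore uncertain.

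The 3' ends are shown because they decide how a histone mRNA is processed and whether oligo(dT) can prime it. Capitals mark a stem of 6 bases on each side of a loop of 4 bases, in transcripts of GENCODE M21.
Hist1h2ap: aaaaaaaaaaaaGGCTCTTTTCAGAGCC
Hist1h2bp: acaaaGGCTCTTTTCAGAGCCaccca
Hist1h4m: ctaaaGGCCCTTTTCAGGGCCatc
Hist1h4n: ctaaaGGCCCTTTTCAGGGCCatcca
Anywhere in a transcript, the stem-loop was found in these 4 of the 7 genes and in 36 of the 52 genes under newer symbols. In the last 100 bases of a transcript it stood in 4 of the 7 genes, in 17 of the 52 and in 6 (0.028%) of 21244 other protein-coding genes. Both H4 genes shared 1 stem and the H2A and H2B genes shared another. In Hist1h2ap the stem-loop began directly after 12 A bases, at positions 452 to 463 of a transcript of 482 bases. The annotated transcript of Hist1h2an stops at the end of its coding sequence, so its 3' end could not be read. The intronless transcripts of Hist1h2bq and Hist1h2br, 381 bases with 378 coding bases, stop likewise. So do transcripts of several genes under newer symbols, such as H2bc13 and H2ac13. A gene without a match may therefore still have the stem-loop, and the counts describe the annotated sequence only. The poly(A) signal AATAAA occurred anywhere in a transcript of Hist1h2bq, Hist1h2br and Hist1h2bp, which each have a spliced transcript (in Hist1h2bp not the one with the stem-loop), and in 15 of the 52 genes under newer symbols. In the last 100 bases it occurred in 3 of the 7 genes, in 9 of the 52 and in 72.0% of the other protein-coding genes.

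Promoter windows, 250 bases before to 50 bases after the annotated start, are from RefSeq (GRCm38.p6), which held all 8 genes under newer names. The RefSeq start is not always that of the GENCODE transcript. In Hist1h2ap it is the first base of the start codon, so distances from the start are not aligned between genes. The window of the most abundant gene and that of an H4 gene are shown because the H2A and H4 genes differ in whether they hold CCAAT. Capitals mark CCAAT, or its reverse complement, and TATAAA. The window of Hist1h2ap is chr13:21833426-21833725 and that of Hist1h4n chr13:21832148-21832447, both on the minus strand.
Hist1h2ap promoter: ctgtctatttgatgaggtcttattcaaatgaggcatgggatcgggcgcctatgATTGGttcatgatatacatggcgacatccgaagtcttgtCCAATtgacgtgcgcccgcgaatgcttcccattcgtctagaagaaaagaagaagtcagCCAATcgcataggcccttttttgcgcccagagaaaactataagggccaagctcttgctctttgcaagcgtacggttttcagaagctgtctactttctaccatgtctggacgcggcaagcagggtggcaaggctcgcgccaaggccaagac
Hist1h4n promoter: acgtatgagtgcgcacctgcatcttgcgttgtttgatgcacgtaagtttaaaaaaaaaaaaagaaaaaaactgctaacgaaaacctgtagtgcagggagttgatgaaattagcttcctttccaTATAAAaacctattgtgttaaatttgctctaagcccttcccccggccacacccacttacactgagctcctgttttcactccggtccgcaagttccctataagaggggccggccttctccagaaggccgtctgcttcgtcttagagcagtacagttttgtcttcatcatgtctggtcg
Both strands were searched for the CCAAT box, for the TATA box as TATAAA, and for part of the octamer known from H2B promoters as TTTGCAT. Only these exact letters were counted, so the similar tataag in both windows shown was not. A window without TATAAA may therefore still hold a TATA box. Each H2A and H2B promoter held CCAAT, and the promoters of Hist1h4m and Hist1h4n held TATAAA and no CCAAT. The windows of Hist1h2an and Hist1h2bp also held TATAAA, and TTTGCAT was in no window of the 7 genes. Relative to the annotated start, TATAAA was at −128 in Hist1h4m, −127 in Hist1h4n and −33 in Hist1h2an. In Hist1h2bp it was at −212 on the opposite strand. The matches of Hist1h2an and Hist1h2bp are the same bases, in the part that both windows share. Of all 27025 promoter windows, 37.9% held CCAAT, 14.2% TATAAA and 4.6% TTTGCAT. Of the 54 promoters found for the whole family, CCAAT was in 46, and in 2 of 10 H4 promoters. TATAAA was in 30 of the 54, with 9 of 15 H2A and 6 of 10 H4 promoters, so it did not set these types apart. TTTGCAT was in 12 of the 54, with 6 of 15 H2A and 5 of 15 H2B promoters. The window of Hist1h2ap overlapped that of Hist1h2br on the other strand by 233 bases, and that of Hist1h2an overlapped that of Hist1h2bp by 261 bases. The windows of Hist1h2bq and Hist1h2br were identical, and those of Hist1h4m and Hist1h4n, aligned with an offset of 1 base, differed at 1 of 299 bases. A motif match is a description of letters and not of a bound site.

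The libraries held 25059112 to 31240067 counts. The vector's gene was higher in the sorted GFP-positive cells. Tox had 105 and 126 CPM (counts scaled to a common library total) in TOXFL-positive cells, against 25.1 and 34.4 CPM in TOXFL-negative cells, and 107 and 82.9 CPM in TOXdeltaN-positive cells, against 21.8 and 32.2 CPM in TOXdeltaN-negative cells. The 7 CD8 T cell markers summed to 4880 to 5250 CPM in GFP-positive and 5390 to 5750 CPM in GFP-negative libraries. In the average of both constructs edgeR called 0 of these 7, with 3 at an unadjusted p under 0.05, and with the replicate number as a block it called Cd8b1 lower (−0.31, adjusted p = 0.00611) and Ptprc lower (−0.33, adjusted p = 0.00829), against 12.7% of all genes. B cell markers (6 genes, Pax5 at 0 throughout) summed to 14 to 16.4 CPM in GFP-positive and 16.4 to 17.5 CPM in GFP-negative libraries, most of it Cd79b. Myeloid and dendritic markers (7 genes, Adgre1 at 0) summed to 1.16 to 3.08 CPM in GFP-positive and 1.98 to 2.95 CPM in GFP-negative libraries. The 4 markers of other lymphocytes (CD4 T, NK and gamma-delta T) summed to 1.00 to 4.48 CPM in GFP-positive and 1.61 to 6.13 CPM in GFP-negative libraries. The part of these markers in the results below was not tested.

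Hist1h2ap, a gene for the core histone H2A, dominated the family. It ranked between 20 and 63 among all genes by count in a library and took 0.109% to 0.192% of all counts. It held 98.9% of the counts of the 7 genes over all libraries, the other 6 summing to 3552 counts. Among the 59 histone genes, old and new symbols together, it held 74.7% of the counts. Per kilobase of exon its level was 2960 ± 698 CPM (SD over 8 libraries), 15.9-fold above the next histone gene on that scale, which has a newer symbol. Its coding sequence is 99.2% identical to that of H2ac11 and 98.5% to that of H2ac8, H2A genes under newer symbols. How reads were divided between Hist1h2ap and such genes is uncertain, and its part in these values was not tested. Among the 7, Hist1h2an followed at 10.7 ± 2.27 CPM per kilobase, then Hist1h4m at 7.5 ± 2.18 and Hist1h4n at 4.62 ± 1.23 CPM per kilobase. The H2B genes stood lowest on this scale, with 1.51 ± 0.420 for Hist1h2bq, 1.17 ± 0.392 for Hist1h2br and 0.913 ± 0.378 CPM per kilobase for Hist1h2bp. Neighbours in this order had overlapping ranges over the libraries, apart from Hist1h2ap, lowest at 2250 against a highest of 15.4 for Hist1h2an, and from Hist1h4n, lowest at 2.55 against a highest of 2.12 CPM per kilobase for Hist1h2bq. The order depends on annotated exon length, 2015, 2212 and 706 bases for Hist1h2bq, Hist1h2br and Hist1h2bp, which include spliced transcripts. The H2A and H4 genes have 393 to 482 bases. In mean CPM without that division, Hist1h2bq had 3.04 and Hist1h2br 2.59, against 3.01 for Hist1h4m and 1.99 for Hist1h4n. Hist1h2bp stayed lowest at 0.64 CPM.

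The run of 12 A bases stood beside the high level of Hist1h2ap, and its part in that level was not tested. The near copy Hist1h2ao carries the same run and had 49 counts in all, although reads could be assigned to either. The only gene under a newer symbol with a run at least as long, H2ac6 with 15, had 0.63 to 2.48 CPM. Where the run lies in the H2ac6 transcript of 2482 bases was not examined, so the genes may not be comparable in this. The 3 genes with AATAAA had 0.913 to 1.51 CPM per kilobase and the 4 without it 4.62 to 2960 CPM per kilobase. This describes only 7 genes, and those of the same histone type have nearly the same coding sequence. The scale divides by annotated exon length, and the 3 have the longest, 706 to 2212 bases. In mean CPM, Hist1h2bq (3.04) and Hist1h2br (2.59) lay between Hist1h4n (1.99) and Hist1h2an (4.19), and Hist1h2bp was lowest (0.64). Among genes under newer symbols, 15 with AATAAA had 0.249 to 187 CPM per kilobase (median 1.24). The 37 without it had 0.876 to 47.2 CPM per kilobase (median 4.85).

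**Figure D1:**
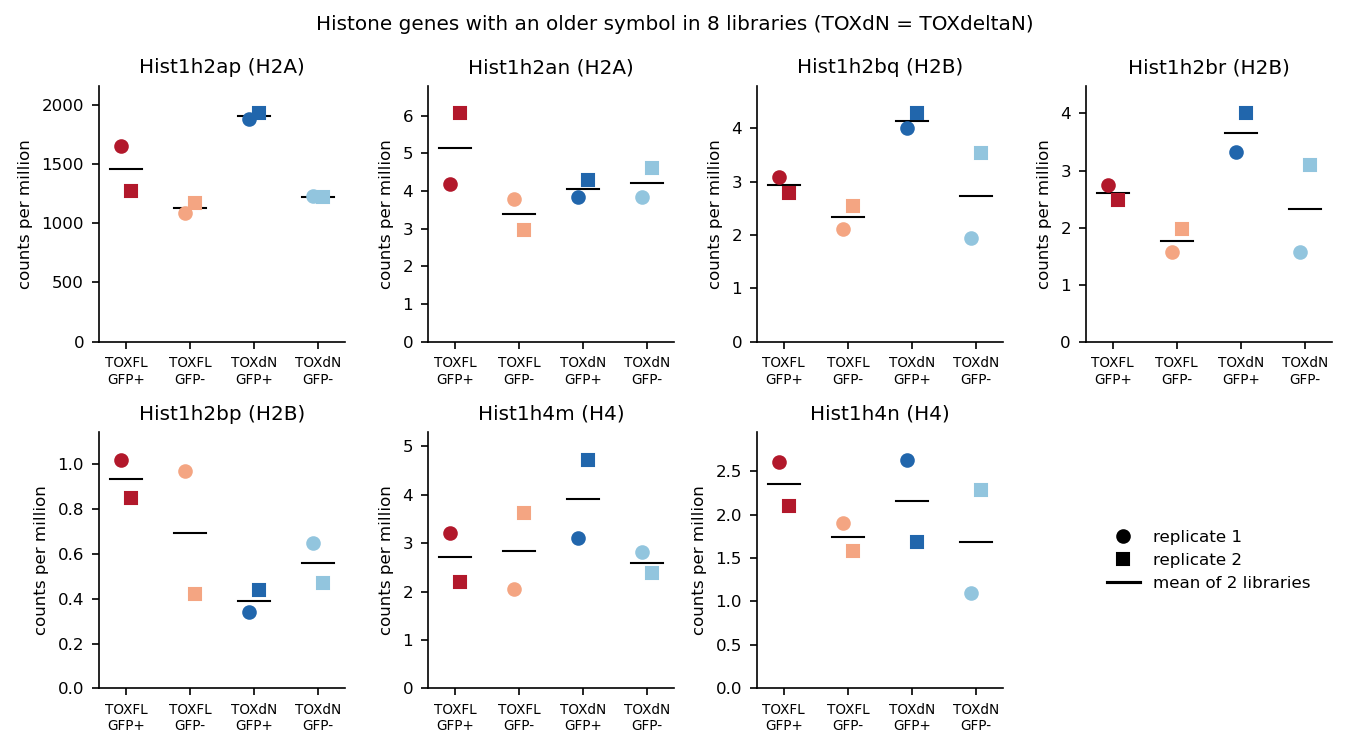
CPM of each of the 7 genes in each library, with GFP-positive left of GFP-negative groups for TOXFL and TOXdeltaN (circles, replicate 1; squares, replicate 2; lines, mean of 2 libraries). In Hist1h2ap the 4 GFP-positive libraries, at 1267 CPM or more, all lay above the 4 GFP-negative libraries, at 1227 CPM or less.

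Hist1h2ap rose in GFP-positive cells. It had 1649.7 and 1267 CPM in TOXFL-positive cells, against 1085 and 1169.7 CPM in TOXFL-negative cells. With the other construct it had 1877 and 1925 CPM in TOXdeltaN-positive cells, against 1227 and 1218 CPM in TOXdeltaN-negative cells. All 4 GFP-positive libraries were above all 4 GFP-negative libraries, the only one of the 7 genes for which this held, while 8.22% of the 13329 tested genes did the same. Averaged over both constructs, its log2 fold change was 0.50 (SE 0.0819), a 1.42-fold difference, with an adjusted p of 0.0226 by edgeR's quasi-likelihood test over all genes. It was the 1 of the 7 genes called in this average, against 2.42% of all genes tested.

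The average of Hist1h2ap was no longer called when any GFP-negative library was left out. The adjusted p was then 0.137 and 0.0585 without TOXFL-negative replicates 1 and 2, and 0.147 and 0.0852 without TOXdeltaN-negative replicates 1 and 2, with log2 fold changes of 0.48 to 0.53. Those fits called between 5 and 72 genes in all, against 323 with every library. With the replicate number as a block it stayed called without each of the same libraries, with adjusted p of 0.027 and 0.0134 without TOXFL-negative replicates 1 and 2, and 0.0372 and 0.0358 without TOXdeltaN-negative replicates 1 and 2 (edgeR). Hist1h2ap was still called without any of the 4 GFP-positive libraries, with log2 fold changes of 0.40 to 0.59 and adjusted p of 0.00758 to 0.0337. Leaving out TOXFL-positive replicate 1 or 2 gave 186 or 10 called genes in all. Leaving out TOXdeltaN-positive replicate 1 gave 2504 such genes, and leaving out its replicate 2 gave 311.

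For each construct alone, Hist1h2ap had a log2 fold change of 0.37 (SE 0.116, adjusted p = 0.224, edgeR) with TOXFL and of 0.64 (SE 0.116, adjusted p = 0.171) with TOXdeltaN. Neither passed the threshold of 0.05. With the replicate number as a block, the TOXdeltaN value of 0.64 was called (adjusted p = 0.0271, edgeR), as were 1.65% of all genes. That call was lost without TOXdeltaN-negative replicate 1 or 2 (adjusted p = 0.345 and 0.424). The TOXFL value of 0.37 was not called (adjusted p = 0.088), against 3.48% of all genes. The TOXFL value was lowest in the second pair of libraries, where TOXFL-positive exceeded TOXFL-negative by a log2 of 0.12, against 0.6 in the first pair. Without TOXFL-positive replicate 1 the TOXFL value was 0.17 (adjusted p = 0.529, edgeR), and 0.15 with the block (adjusted p = 0.482). Without TOXFL-positive replicate 2 it was 0.55 (adjusted p = 0.357, edgeR), and with the block 0.57 and called (adjusted p = 0.0301). It was also called with the block without TOXdeltaN-positive replicate 1 or 2 (0.36 in each, adjusted p = 0.0179 and 0.0187). With TOXdeltaN the differences were 0.61 in the first pair and 0.66 in the second, and without TOXdeltaN-positive replicate 1 its value was called (adjusted p = 0.0218, edgeR), in a fit that called 1571 genes in all.

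The level of genes as short as Hist1h2ap varied together between libraries. A curve of log2 level against exon length placed such genes at −0.28 in TOXFL-positive replicate 2 and at 0.32 in TOXdeltaN-positive replicate 2, relative to the mean of the 8 libraries, and between −0.09 and 0.08 in the other 6. After this curve was subtracted, the average log2 fold change of Hist1h2ap was 0.43 (adjusted p = 0.0142, edgeR), with 2.67% of all genes called. In the fit with both the curve and the replicate block it was called with TOXFL, at 0.41 (adjusted p = 0.0109, 4.2% of all genes called), and with TOXdeltaN, at 0.44 (adjusted p = 0.0129, 2.1% of all genes called). With GC content in the curve as well, Hist1h2ap was again the 1 gene called of the 7, against 4.31% of all genes with TOXFL and 2.24% with TOXdeltaN. The gap between both constructs was thus 0.64 with TOXdeltaN against 0.37 with TOXFL without the curve, and 0.44 against 0.41 in the same order with it.

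Hist1h2an, the other H2A gene, had 4.20 and 6.06 CPM in TOXFL-positive cells, against 3.8 and 2.96 CPM in TOXFL-negative cells. It had 3.83 and 4.28 CPM in TOXdeltaN-positive cells, against 3.83 and 4.60 CPM in TOXdeltaN-negative cells. The TOXFL groups did not overlap and the TOXdeltaN groups did. The log2 fold change was 0.60 (SE 0.277, adjusted p = 0.389, edgeR) with TOXFL and −0.06 (SE 0.277, adjusted p = 0.945) with TOXdeltaN. Hist1h2ao, under the count minimum, had no counts in any GFP-positive library, against 0 and 9 counts in TOXFL-negative and 20 and 20 counts in TOXdeltaN-negative cells. With the replicate block its average was called lower (adjusted p = 0.0348, edgeR), against 12.7% of all genes. It passed the filter on low counts through GFP-negative libraries alone, so the direction of that call was set in advance. How reads were divided between Hist1h2ao and Hist1h2ap is also uncertain, so the call is no evidence of a change. Set beside the 326697 counts of its copy Hist1h2ap, these 49 counts do not alter the sum of both, which gave the same average log2 fold change of 0.50 (adjusted p = 0.0227, edgeR).

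The H2B genes Hist1h2bq and Hist1h2br were higher in the GFP-positive library of all 4 pairs of equal replicate number, without reaching the threshold. Hist1h2bq had 3.08 and 2.79 CPM in TOXFL-positive cells, against 2.12 and 2.54 CPM in TOXFL-negative cells, and 4 and 4.28 CPM in TOXdeltaN-positive cells, against 1.95 and 3.53 CPM in TOXdeltaN-negative cells. Hist1h2br had 2.74 and 2.48 CPM in TOXFL-positive cells, against 1.57 and 1.97 CPM in TOXFL-negative cells, and 3.32 and 4 CPM in TOXdeltaN-positive cells, against 1.57 and 3.09 CPM in TOXdeltaN-negative cells. In both genes each pair of groups was free of overlap, and the 2 TOXdeltaN-negative libraries lay far apart. The average log2 fold change was 0.46 (SE 0.236, adjusted p = 0.286, edgeR) for Hist1h2bq and 0.60 (SE 0.265, adjusted p = 0.224) for Hist1h2br. Because the 2 are near copies, their counts were also added before the fit, which gave 0.53 (SE 0.209, adjusted p = 0.185).

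Hist1h2bp, the third H2B gene and the least abundant of the 7, had estimates of opposite sign with the constructs, neither past the threshold. It had 1.02 and 0.85 CPM in TOXFL-positive cells, against 0.97 and 0.42 CPM in TOXFL-negative cells, which overlapped. It had 0.34 and 0.44 CPM in TOXdeltaN-positive cells, against 0.65 and 0.47 CPM in TOXdeltaN-negative cells, with no overlap. The log2 fold change was 0.42 (SE 0.569, adjusted p = 0.794, edgeR) with TOXFL and −0.52 (SE 0.609, adjusted p = 0.743) with TOXdeltaN, on 10 to 30 counts per library.

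The H4 genes had levels between those of the H2A and H2B genes per length and no call. Hist1h4m had 3.21 and 2.2 CPM in TOXFL-positive cells, against 2.05 and 3.63 CPM in TOXFL-negative cells, and 3.11 and 4.72 CPM in TOXdeltaN-positive cells, against 2.81 and 2.38 CPM in TOXdeltaN-negative cells. The TOXFL groups overlapped fully and the TOXdeltaN groups did not overlap. Its log2 fold change was −0.07 (SE 0.379, adjusted p = 0.958, edgeR) with TOXFL and 0.59 (SE 0.377, adjusted p = 0.533) with TOXdeltaN. Hist1h4n had 2.61 and 2.10 CPM in TOXFL-positive cells, against 1.90 and 1.58 CPM in TOXFL-negative cells, and 2.63 and 1.68 CPM in TOXdeltaN-positive cells, against 1.10 and 2.28 CPM in TOXdeltaN-negative cells. Here the TOXFL groups did not overlap and the TOXdeltaN groups did, with an average log2 fold change of 0.39 (SE 0.306, adjusted p = 0.483, edgeR). Added together, both H4 copies had an average of 0.32 (SE 0.180, adjusted p = 0.327).

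**Figure D2:**
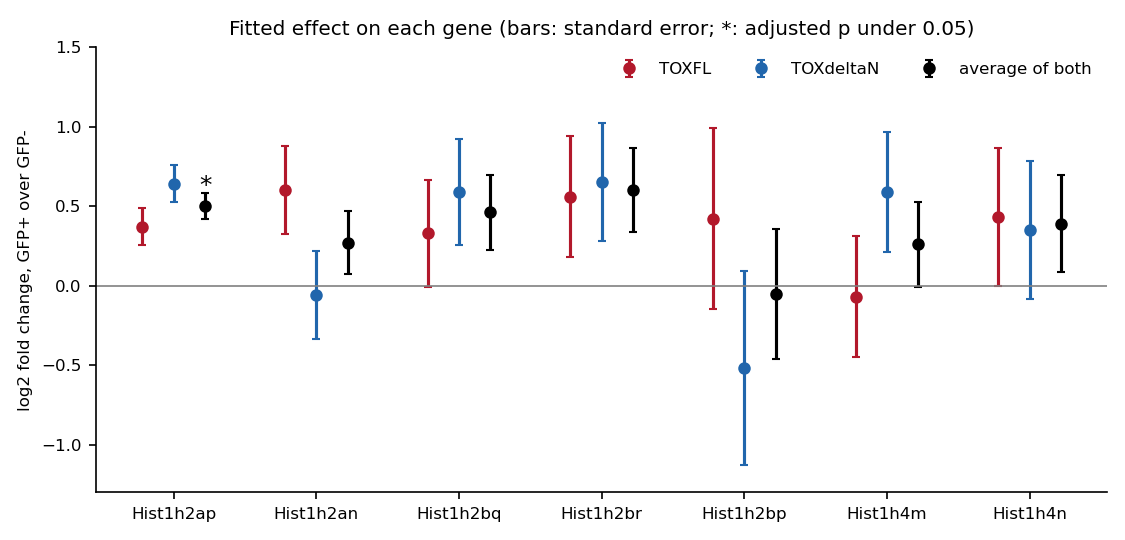
Fitted log2 fold change of each gene, GFP-positive over GFP-negative, with TOXFL, with TOXdeltaN and averaged over both (bars, standard error; asterisk, adjusted p under 0.05). The 1 called value is the average of Hist1h2ap, 0.50, whose error is smaller than that of the 6 scarce genes.

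Counted over the 7 genes, all of which passed the filter on low counts, 0 were called by edgeR with TOXFL, against 0.045% of all genes tested, and 1 had an unadjusted p under 0.05. DESeq2 and limma-voom also called 0, against 2.39% and 0.0375% of all genes in that order of tools. With TOXdeltaN edgeR called 0, against 0.03% of all genes, with 1 at an unadjusted p under 0.05, while DESeq2 called 1, against 0.9% of all genes, and limma-voom 0, against 0.0375%. In the average DESeq2 called 7.98% and limma-voom 2.56% of all genes, Hist1h2ap among them. With no filter on low counts edgeR called Hist1h2ap with TOXFL, against 3.17% of all genes, and with TOXdeltaN, against 2.41%. Unadjusted p values under 0.05 were found for 13.4% of all genes with TOXFL, 12.2% with TOXdeltaN and 21.9% in the average. Of the log2 fold changes 6 were above 0 with TOXFL and 5 with TOXdeltaN, with medians of 0.42 and 0.59, beside medians of −0.003 and 0.0054 over all genes. The larger median with TOXdeltaN did not hold with the length curve subtracted. The medians were then 0.41 with TOXFL and 0.38 with TOXdeltaN, and 0.45 and 0.36 with the replicate block as well. In 5 of the 7 both TOXFL-positive libraries exceeded both TOXFL-negative libraries, as in 24.9% of all genes. In 4 of the 7 both TOXdeltaN-positive libraries exceeded both TOXdeltaN-negative libraries, as in 21.1% of all genes, and in 1, Hist1h2bp, both were lower, as in 20.8%. In 0 of the 7 were both TOXFL-positive libraries lower, as in 25.5% of all genes, or all 4 GFP-positive libraries lower, as in 8.08%.

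Between the constructs none of the 7 was called. The difference of the TOXFL and TOXdeltaN effects gave 0 calls by edgeR, against 0.0% of all genes, with 0 at an unadjusted p under 0.05, against 2.39%, and 0 by DESeq2, against 0.0525%, and by limma-voom, against 0.0%. For Hist1h2ap it was −0.27 (SE 0.163, unadjusted p = 0.137, adjusted p = 1.0, edgeR). The direct comparison of TOXFL-positive with TOXdeltaN-positive cells gave 0 calls, against 0.0% of all genes, with 1 at an unadjusted p under 0.05, against 5.76%, and 0 by DESeq2, against 0.113%, and by limma-voom, against 0.0%. The gene with that p was Hist1h2ap, at −0.38 (SE 0.116, unadjusted p = 0.00862, adjusted p = 0.822, edgeR), the level being lower in TOXFL-positive cells. With no filter on low counts edgeR called it, at −0.37 (adjusted p = 0.0308), against 0.542% of all genes. The comparison of TOXFL-negative with TOXdeltaN-negative cells gave 0 calls, against 0.0% of all genes, with 0 at an unadjusted p under 0.05, against 2.46%, and 0 by DESeq2, against 0.06%, and by limma-voom, against 0.0%. There Hist1h2ap stood at −0.12 (SE 0.116, adjusted p = 1.0, edgeR).

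Summed by histone type, the 2 H2A genes reached 1464 ± 269 CPM in TOXFL-positive and 1131 ± 58.9 CPM in TOXFL-negative cells, and 1905 ± 34.3 CPM in TOXdeltaN-positive and 1227 ± 5.92 CPM in TOXdeltaN-negative cells (SD, n = 2 each). Nearly all of this sum was Hist1h2ap. The 3 H2B genes summed to 6.48 ± 0.506 CPM in TOXFL-positive and 4.80 ± 0.191 CPM in TOXFL-negative cells, and to 8.19 ± 0.748 CPM in TOXdeltaN-positive and 5.63 ± 2.06 CPM in TOXdeltaN-negative cells (SD, n = 2 each). The 2 H4 genes summed to 5.06 ± 1.08 CPM in TOXFL-positive and 4.58 ± 0.891 CPM in TOXFL-negative cells, and to 6.07 ± 0.462 CPM in TOXdeltaN-positive and 4.28 ± 0.541 CPM in TOXdeltaN-negative cells (SD, n = 2 each). The ratios to the GFP-negative cells were 1.29-fold for H2A, 1.35-fold for H2B and 1.10-fold for H4 with TOXFL. With TOXdeltaN they were 1.55-fold, 1.45-fold and 1.42-fold in the same order of types. These sums were taken without the length curve.

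The 52 genes under newer symbols were set beside the 7. They summed to 497 and 331 CPM in TOXFL-positive cells, against 401 and 422 CPM in TOXFL-negative cells, and to 581 and 642 CPM in TOXdeltaN-positive cells, against 432 and 453 CPM in TOXdeltaN-negative cells. The lowest sum of all was that of TOXFL-positive replicate 2, the library whose length curve was lowest for genes as short as Hist1h2ap, and the part of that in this sum was not tested. The TOXFL groups overlapped and the TOXdeltaN groups did not. Hist1h2ap took 76.2% and 78.5% of the counts of the 59 histone genes in TOXFL-positive cells, against 72.4% and 72.9% in TOXFL-negative cells. It took 75.8% and 74.4% in TOXdeltaN-positive cells, against 73.4% and 72.2% in TOXdeltaN-negative cells. Its share was thus higher in each GFP-positive library than in any GFP-negative library, a description for which no test was made. The share also depends on how reads were divided between Hist1h2ap and the other H2A genes.

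**Figure D3:**
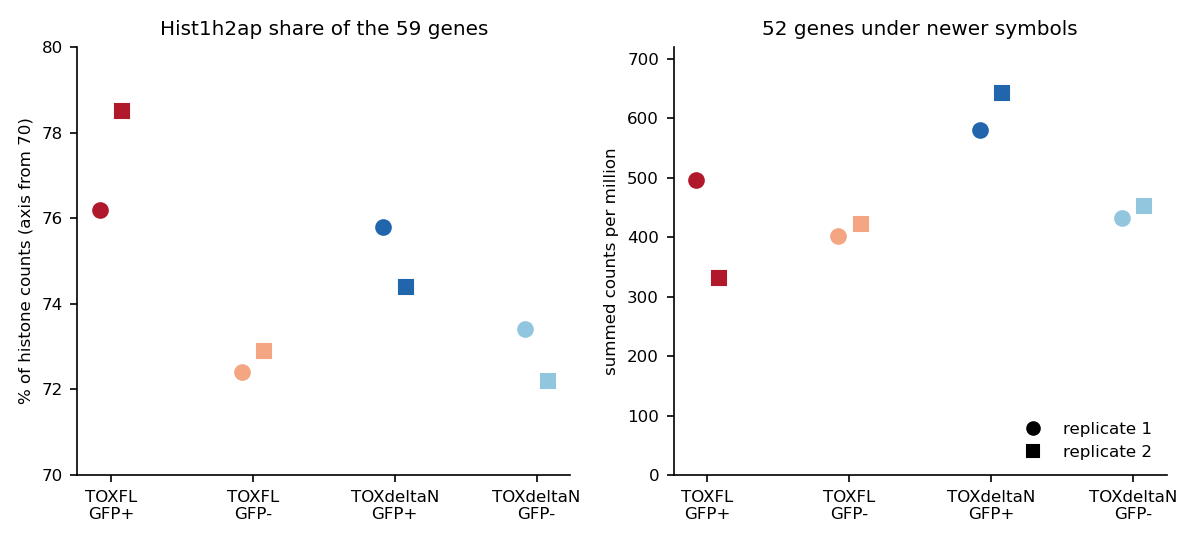
Left, the percent of the counts of 59 histone genes that Hist1h2ap took in each library, on an axis that starts at 70%; right, the summed CPM of the 52 genes under newer symbols (circles, replicate 1; squares, replicate 2). The shares of the 4 GFP-positive libraries run from 74.4% to 78.5% and those of the 4 GFP-negative libraries from 72.2% to 73.4%, while the sum was lowest, at 331 CPM, in TOXFL-positive replicate 2.

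In the average of both constructs, 45 of the 52 genes had a log2 fold change above 0, with a median of 0.25, beside 49.9% of all genes and a median of −0.0005. For the 7 genes it was 6, with a median of 0.39. Of the 52, 1 was called, against 2.42% of all genes, namely H1f5 (older symbol Hist1h1b), a gene for the linker histone H1. It had 39.6 and 32.7 CPM in TOXFL-positive cells, against 24.3 and 26.2 CPM in TOXFL-negative cells, and 36.6 and 43.0 CPM in TOXdeltaN-positive cells, against 26.9 and 25.2 CPM in TOXdeltaN-negative cells. Its average log2 fold change was 0.56 (SE 0.0925, adjusted p = 0.0232, edgeR). None of the 52 was called when any TOXFL library or either TOXdeltaN-negative library was left out. With the replicate block 4 of the 52 were called, H1f5, the H2A genes H2ac20 (0.69) and H2ac11 (0.42) and the H2B gene H2bc11 (0.45), against 12.7% of all genes, and Hist1h2ap among the 7.

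By construct, 32 of the 52 were above 0 with TOXFL, median 0.14, and 46 with TOXdeltaN, median 0.43. Of all genes 49.4% and 50.8% were above 0, in that order. Without TOXFL-positive replicate 2 the TOXFL count was 39 and the median 0.29, and without TOXFL-positive replicate 1 they were 24 and −0.02. With the length curve subtracted, 32 were above 0 with TOXFL, median 0.17, and 40 with TOXdeltaN, median 0.25. Of all genes 49.2% and 51.3% were then above 0. The gap between the constructs was thus smaller with the curve. By type, without the curve, the medians with TOXFL were −0.07 for H1, 0.13 for H2A, 0.14 for H2B, 0.20 for H3 and −0.10 for H4. With TOXdeltaN they were 0.47, 0.44, 0.30, 0.42 and 0.56 in that order. The edgeR fit called 0 of the 52 with either construct, against 0.045% of all genes with TOXFL and 0.03% with TOXdeltaN. An unadjusted p under 0.05 was found for 3 with TOXFL, against 13.4% of all genes, and for 7 with TOXdeltaN, against 12.2%. DESeq2 called H1f5 alone with each construct, against 2.39% of all genes with TOXFL and 0.9% with TOXdeltaN. With limma-voom 0 were called, against 0.0375% with each construct. With the replicate block edgeR called H1f5 with TOXdeltaN (0.61, adjusted p = 0.0484), against 1.65% of all genes.

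**Figure D4:**
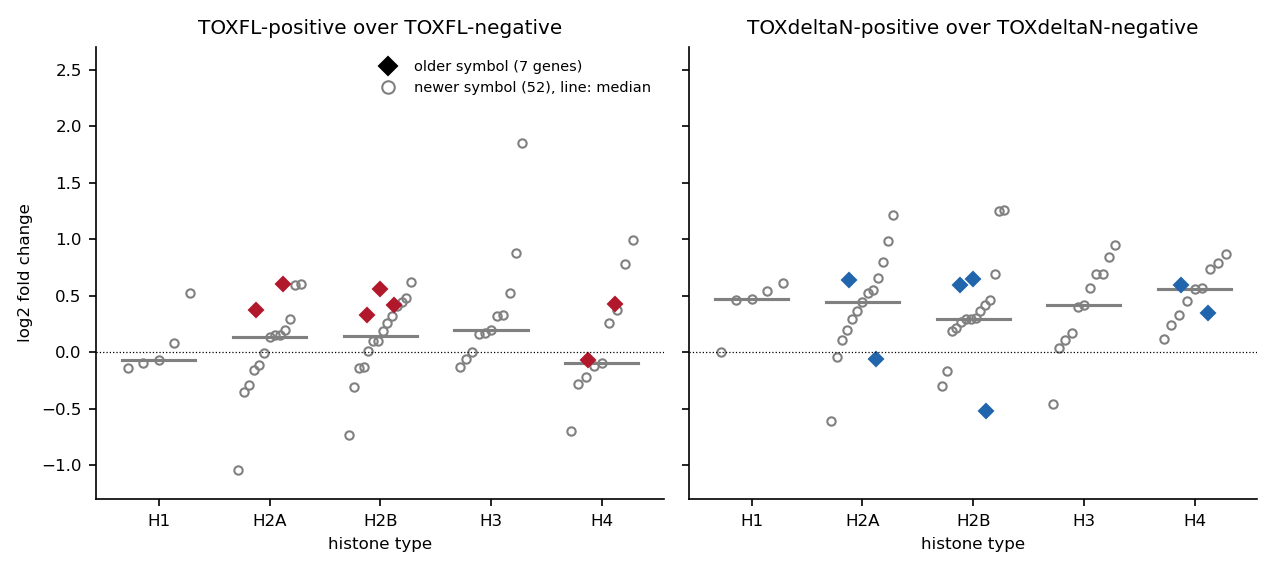
Log2 fold change of the 7 genes (diamonds) and of the 52 genes under newer symbols (open circles, line at their median) by histone type, for TOXFL on the left and TOXdeltaN on the right. With TOXFL the medians of the 52 lie between −0.10 and 0.20, and with TOXdeltaN between 0.30 and 0.56. These values are without the length curve.

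Genes that act with the replication-dependent histones were described from lists, in the average of both constructs, in which edgeR called 2.42% of all genes, 12.7% with the replicate block, and DESeq2 7.98%. Of 9 tested replacement histones, which are made outside S phase or for special chromatin, 2 rose by edgeR. They were H2ax, the variant phosphorylated at DNA breaks (0.42, adjusted p = 0.0276), and H2az1, an H2A.Z gene (0.29, adjusted p = 0.0418). H1f0 had 0.46 (adjusted p = 0.0636), the list's median was 0.29, and with the replicate block 5 were called. Of 18 histone chaperones 2 rose: Asf1b, which hands over H3 and H4 (0.42, adjusted p = 0.0216), and Chaf1a, a subunit of chromatin assembly factor 1 (0.32, adjusted p = 0.0379). Rbbp4, another subunit, had 0.27 (adjusted p = 0.0554), the list's median was 0.12, and with the block 6 were called higher and 1 lower.

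Of 22 genes for histone mRNA transcription and 3' end processing, edgeR called 0, with 2 at an unadjusted p under 0.05, DESeq2 called 2 and limma-voom 0. Their median was 0.03. Slbp, the stem-loop binding protein itself, had 409 ± 9.02 CPM in GFP-positive and 343 ± 10.6 CPM in GFP-negative libraries (SD, n = 4 each; log2 0.25, adjusted p = 0.0565). E2f1, a factor of S phase entry, had 0.28 (adjusted p = 0.083) and Casp8ap2, a histone locus body protein, 0.13 (adjusted p = 0.262). With the replicate block Slbp (adjusted p = 0.0133) and E2f1 (adjusted p = 0.018) were called by edgeR, against 12.7% of all genes, and the 2 DESeq2 calls stand against 7.98%. Of 7 tested genes for poly(A) polymerases and related RNA-binding proteins, edgeR, DESeq2 and limma-voom called 0. By edgeR 1 had an unadjusted p under 0.05. The list held no enzyme that removes poly(A) tails. The lowest p values were those of the poly(A) polymerase genes Tent4a (0.23, adjusted p = 0.179) and Tent4b (−0.24, adjusted p = 0.282) and of Pabpc1, a poly(A) binding protein (−0.14, adjusted p = 0.368).

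Of 36 DNA replication genes 7 rose: Rrm2, Tyms, Prim2, Fen1, Rfc5, Rpa2 and Lig1, with log2 fold changes of 0.30 to 0.44. Rrm2, a subunit of ribonucleotide reductase, had 655 ± 31.2 CPM in GFP-positive and 488 ± 24.4 CPM in GFP-negative libraries (SD, n = 4 each; log2 0.43, adjusted p = 0.0206, edgeR). Tyms, thymidylate synthase, had 0.44 (adjusted p = 0.0222) and Prim2, a primase subunit, 0.41 (adjusted p = 0.0255). The list's median was 0.30, and with the block 23 were called higher and 0 lower. Of 15 mitosis genes 11 rose: Cdk1, Birc5, Ube2c, Aurka, Ccna2, Nek2, Cdc20, Aurkb, Bub1, Ccnb1 and Plk1, with log2 fold changes of 0.39 to 0.60. Cdk1, the kinase of mitotic entry, had 191 ± 11.6 CPM in GFP-positive and 127 ± 9.67 CPM in GFP-negative libraries (SD, n = 4 each; log2 0.59, adjusted p = 0.0127, edgeR). Birc5, survivin, had 0.51 (adjusted p = 0.0155) and Ube2c, a ubiquitin-conjugating enzyme of the anaphase-promoting complex, 0.60 (adjusted p = 0.0158), and the list's median was 0.44. With the block 13 were called, Ccnb2 (adjusted p = 0.00723, edgeR) and Kif11 (adjusted p = 0.038) being added. Mki67, the proliferation marker Ki-67, named here after its values were seen, had 526 ± 52.3 CPM in GFP-positive and 505 ± 20.1 CPM in GFP-negative libraries (SD, n = 4 each; log2 0.06, adjusted p = 0.703, edgeR) and was not called. The values of the genes called moved in the same direction as Hist1h2ap, and their part in its change was not tested.

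**Figure D5:**
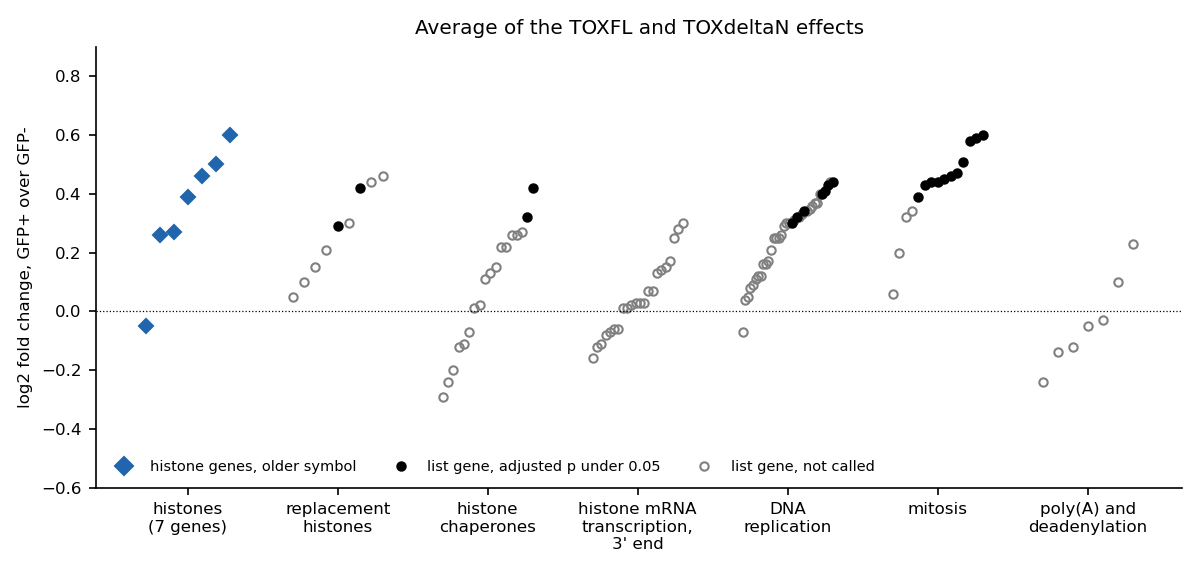
Average log2 fold change, GFP-positive over GFP-negative, of the 7 histone genes (diamonds) and of the tested genes of 6 lists (filled circles, adjusted p under 0.05; open circles, not called). Filled circles are most frequent among the mitosis genes, 11 of 15, and absent among the histone mRNA and poly(A) lists. The list labelled poly(A) and deadenylation held no enzyme that removes poly(A) tails.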

How the data were processed

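RNA was measured in 8 libraries of sorted mouse CD8 T cells, each made from 8 ng of total RNA with the SMART-Seq v4 and Nextera XT kits, per the labels' protocols. The deposited values are estimated counts per gene in whole numbers. The submitters' processing notes name bcl2fastq 2.20, cutadapt, STAR 2.6.1, RSEM 1.2.28 and GRCm38, and the gene annotation release is not given in the sources used here. Gene IDs matched GENCODE M21 for 31748 of 31815 rows. The 92 spike-in rows summed to 0 and were left out. The table gives no blank or unassigned row.

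Genes were filtered with edgeR's filterByExpr, scaled by TMM and fitted with edgeR 4.0.16 (R 4.3.3) as a model of 4 group means, using the quasi-likelihood F-test with Benjamini-Hochberg adjustment over 13329 genes and a threshold of 0.05. CPM are counts per 1000000 of the TMM-scaled library total. Of 6 comparisons, 4 set GFP-positive cells against GFP-negative cells (each construct alone, the average and the difference of both), and the others were TOXFL against TOXdeltaN in GFP-positive and in GFP-negative cells. These comparisons share libraries. Alternatives were the replicate number as a block, a smooth curve of log2 level on exon length (and GC content) as an offset (mgcv 1.9.3), DESeq2 1.42.0, limma-voom (limma 3.58.1), no filter, pairs of groups alone, near copies added together (chosen after seeing the data), and leaving out each library.

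Libraries of the same replicate number deviated together in all 6 pairs of groups (r = 0.168 to 0.241 over genes), so the blocked value is given beside the results above whose call it changed. This pairing comes from the data, not from the labels. Genes named were those called in any comparison with or without the block, the most abundant and the highest and lowest changed of each type, those at the edge of the count minimum, and, of each list, those called and the 3 of lowest p in the average. The members and lists were chosen with earlier results of these data known. The lists of CD8 T cell, B cell, myeloid, and CD4 T and NK markers are given as summed levels. A further marker list is not reported here.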

Additional observations from a re-analysis of the deposited data

Results flagged for a closer look

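Hist1h2bp, an H2B gene, moved one way with TOXFL and the other way with TOXdeltaN in every pair of libraries of equal replicate number. With TOXFL the log2 ratio of GFP-positive to GFP-negative was 0.07 and 1.00, and with TOXdeltaN it was −0.93 and −0.10. The fitted difference of the 2 effects was 0.94 (SE 0.834, unadjusted p = 0.288, adjusted p = 1.0, edgeR's quasi-likelihood test). It was thus not resolved from 0, at 10 to 30 counts per library.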

How the results depend on the processing

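The number of the 7 genes called, 0 with TOXFL, became 1.0 in the fits with the replicate block and a length curve, the block with length and GC content, and no filter on low counts. With TOXdeltaN it became 1.0 in those same fits, with the replicate block alone, with DESeq2 and with near copies summed under the block. Between TOXFL-positive and TOXdeltaN-positive cells it became 1.0 with no filter. In each case the gene was Hist1h2ap, and the cause was not tested. Leaving out 1 library at a time gave 0.0 to 1.0 genes with TOXdeltaN and in the average. With the block it gave 0.0 to 1.0 with TOXFL, with TOXdeltaN and between the GFP-positive groups, and 1.0 throughout in the average.

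Signs turned in the scarce genes. The TOXFL value of Hist1h4m, −0.07, was 0.02 with block and length, 0.05 with GC added, 0.14 with its copy summed and 0.15 with that and the block. The average of Hist1h2bp, −0.05, was 0.01 with limma-voom. Leaving out 1 library gave −0.42 to 0.40 for Hist1h4m and −0.06 to 1.13 for Hist1h2bp with TOXFL, −0.19 to 0.08 for Hist1h2an and −0.08 to 0.98 for Hist1h4n with TOXdeltaN, and −0.29 to 0.30 for Hist1h2bp in the average. With the block these ranges were −0.53 to 0.42 (its values above 0 being 0.41 and 0.42), 0.02 to 1.05, −0.13 to 0.02, −0.31 to 1.15 and −0.25 to 0.27 (no longer below 0 at 0.0, 0.05, 0.24 and 0.27).

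Without the most abundant gene of its type, the TOXdeltaN log2 ratio of the H2A sum was −0.06 and that of the H4 sum 0.35. Leaving out 1 library gave TOXdeltaN log2 ratios of 0.62 to 0.65 for the H2A sum, 0.21 to 0.97 for H2B and 0.38 to 0.64 for H4. With TOXFL it gave 0.17 to 0.55 for H2A, 0.35 to 0.51 for H2B and −0.09 to 0.36 for H4, which was 0.14 with every library.

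Over all genes the replicate block called 464 with TOXFL, 220 with TOXdeltaN and 1697 in the average, against 6, 4 and 323 without it. With no filter on low counts 678 were called with TOXFL and 516 with TOXdeltaN. The 6 scarce genes, with summed counts of 149 to 971, allow no firm statement at this depth. The counts for the gene lists were not recomputed without single libraries.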
